A study of Mus musculus with 8 samples.

Results

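CD14, the Toll-like receptors and the proteins that carry or damp their signal were followed on 8 mouse arrays through 10 genes: Cd14, Lbp, Ly96, Tlr4, Tlr2, Tlr3, Myd88, Ticam1, Nfkbia and Tnfaip3. They are 10 of the 15653 genes that could be named on the arrays. The genes were chosen from earlier results on these same arrays, among them the low level of Cd14 in one of the lines. Their differences between lines are therefore a description and carry no test. Each of the 10 had a probe set. Rows with identical values count once, which leaves 11 value profiles for the 10 genes among 18172 in all, with 2 profiles for Ly96 and 1 for each of the other 9 genes.

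The arrays compare 3 lines of p53-null murine fetal fibroblasts, each of them 1 clone, and ask which genes go with the switch from symmetric to asymmetric self-renewal. Ind-8 cells (3 arrays) carry a wild-type mouse p53 cDNA behind a modified human metallothionein promoter, which zinc activates, and they self-renew asymmetrically when p53 is on. Con-3 cells (3 arrays) have no p53 cDNA and stay symmetric. The sample labels name Con-3 as the congenic parent of Ind-8, whereas the methods call it a vector control. tI-3 cells (2 arrays) derive from Ind-8 and have also a constitutively expressed IMPDH II cDNA, an enzyme of guanine nucleotide synthesis, and stay symmetric although p53 is induced. All cultures grew with 65 µM ZnCl2 for 48 h in medium with 10% dialyzed serum and 5 µg/ml puromycin. G418 was added for tI-3 alone, its dose being 1 µg/ml in the labels and 1 mg/ml in the methods. The arrays of a line are labelled as biological replicates, so they measure variation between cultures of 1 clone. A difference between lines is thus also a difference between clones, and for tI-3 it cannot be told apart from the second cDNA and G418.

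CD14 sits on the outer face of the plasma membrane, takes lipopolysaccharide (LPS) from the serum protein LBP and hands it to the complex of TLR4 with MD-2. The receptors then recruit the adaptors MyD88 or TRIF, and the kinase cascades behind these adaptors free NF-κB from its inhibitors. NF-κB in turn raises the transcription of proteins that shut it off, IκBα and A20 among them. Macrophages are the best known site of this pathway, and fibroblasts also use it to answer bacterial products. LPS was not part of any culture described here.

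Levels are log2 values from the RMA method, for which the number of arrays limits the precision. Array medians ran from 6.12 to 6.19. Arrays of the same line correlated at 0.994 to 0.996 (Pearson's r over probe sets, 7 pairs) and arrays of different lines at 0.978 to 0.988 (21 pairs), and probe sets are not replicates. One array stood apart before any gene was compared. On Con-3 replicate 3 the 18S rRNA control probe sets read 11.38 at the 3′ end, 9.53 in the middle and 10.97 at the 5′ end. The highest readings on the other 7 arrays were 7.67, 6.45 and 5.25. Differences of the 10 genes from Con-3 (main profiles) are therefore given with and without that array, and pathway calls that end without it are named, a choice made after its 18S level was seen. The 18 hybridization-control probe sets, which report RNA added to the sample before hybridization, averaged 9.88 to 10.00 on the Ind-8 arrays and Con-3 replicates 1 and 2. They averaged 10.44 on Con-3 replicate 3 and 10.24 and 10.46 on the tI-3 arrays. A high control level cannot be told apart from the tI-3 line, which has no array with a low one.

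**Figure D1:**
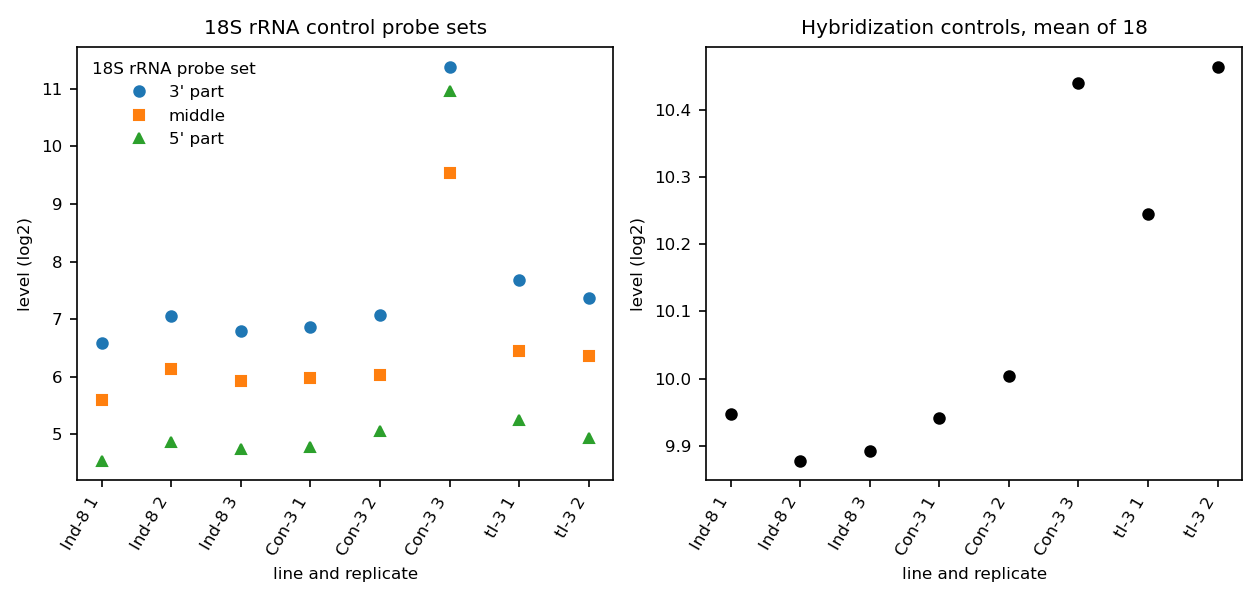
Levels (log2) of control probe sets on each of the 8 arrays, with 3 probe sets of 18S rRNA on the left and the mean of 18 hybridization controls on the right. Con-3 replicate 3 reads 10.97 to 11.38 at the ends of 18S rRNA, and this array and both tI-3 arrays hold the highest hybridization-control means.

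The labels of the lines were checked on genes outside the pathway. Trp53 read 5.68, 5.87 and 5.80 in Ind-8, 5.21, 5.29 and 5.27 in Con-3 and 5.60 and 5.69 in tI-3. Cdkn1a, a p53 target that encodes the cell cycle inhibitor p21, read 9.70, 9.70 and 9.59 in Ind-8, 5.73, 5.81 and 6.03 in Con-3 and 7.55 and 7.33 in tI-3. Mdm2, the p53 target that degrades p53, averaged 10.90 in Ind-8, 8.90 in Con-3 and 9.62 in tI-3. Both targets were thus highest in Ind-8, lowest in Con-3 and between them in tI-3, with no overlap between lines. The metallothioneins that answer zinc were high in every line, with line means of Mt1 from 13.62 to 13.88 and of Mt2 from 13.07 to 13.45. Impdh2 read 12.16, 12.19 and 12.22 in Ind-8, 12.51, 12.56 and 12.53 in Con-3 and 12.34 and 12.38 in tI-3. Both tI-3 arrays thus lay above Ind-8 but below Con-3 (tI-3 minus Con-3 −0.17), so the check did not show a level above Con-3 for the line that carries the IMPDH II cDNA. Whether the probe set reads the mRNA of that cDNA was not tested.

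Of 10 fibroblast markers, 9 had a mean over the 8 arrays above 4.29, the 25th percentile of all profiles, and the highest reading was that of Vim (13.89). Thy1 was the marker below that bound. On the linear scale the summed signal of the 10 was 43426 to 47223 in Ind-8, 34518 to 39697 in Con-3 and 30411 and 30203 in tI-3. In Ind-8 against tI-3, limma at an adjusted p under 0.05 called 5 of the 10 higher in Ind-8 (Col1a1, Col3a1, Vim, Fn1 and Sparc, where 15.9% of all profiles were higher) and 1 lower (Thy1, where 14.8% were). In Ind-8 against Con-3 it called 2 higher (Fn1 and Pdgfrb, against 10.8%) and 2 lower (Thy1 and Postn, against 10.2%). In tI-3 against Con-3 the markers went both ways. By limma at an adjusted p under 0.05, 3 of the 10 were higher in tI-3 (Fn1, Pdgfrb and Thy1, where 10.3% of all profiles were higher) and 4 were lower (Col1a1, Col3a1, Sparc and Postn, where 15.6% were). Col3a1 had the largest of these differences, with means of 9.07 in Con-3 and 6.38 in tI-3, while Col1a2 differed by −0.01. Of 13 macrophage markers measured, 6 lay below the 25th percentile, among them Ptprc with line means of 3.50, 3.66 and 3.61 in Ind-8, Con-3 and tI-3. The highest of them was Csf1r, with a mean of 5.47. Of 6 endothelial markers 5 lay below the percentile (the highest was Kdr, 6.15), as did 4 of 6 epithelial markers (the highest was Krt5, 5.20).

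Cd14 encodes the LPS co-receptor. Its level was 8.41, 8.22 and 7.61 in Ind-8, 9.58, 9.31 and 9.16 in Con-3 and 10.10 and 9.78 in tI-3. All Ind-8 arrays lay below all arrays of the other lines, and both tI-3 arrays lay above all Con-3 arrays. The line means were 8.08 ± 0.41 in Ind-8 (SD, n = 3), 9.35 ± 0.21 in Con-3 (SD, n = 3) and 9.94 ± 0.23 in tI-3 (SD, n = 2). Ind-8 was thus the lowest and the most variable line. On the log2 scale Ind-8 was −1.27 from Con-3 (SE 0.19, from the limma fit across all profiles, as are all standard errors here), or 2.42-fold lower. It was −1.86 from tI-3 (SE 0.22), or 3.64-fold lower. tI-3 exceeded Con-3 by 0.59 (SE 0.22). Without Con-3 replicate 3, the lowest of the Con-3 arrays for this gene, the difference of Ind-8 from Con-3 was −1.37 and that of tI-3 from Con-3 was 0.50. The RNA came from whole cultures, so fewer cells with Cd14 mRNA and less of it per cell cannot be told apart.

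The summed signal of the macrophage markers, at the dim end of the scale, was also highest in tI-3. Summed over the 13 genes on the linear scale, their signal was 258, 254 and 266 on the Ind-8 arrays, 265, 275 and 293 on the Con-3 arrays and 310.0 and 342 on the tI-3 arrays, so Ind-8 and Con-3 overlapped. By limma at an adjusted p under 0.05, 6 of the 13 were lower in Ind-8 than in tI-3 (14.8% of all profiles were) and 2 were higher in tI-3 than in Con-3 (10.3% were), while in Ind-8 against Con-3 limma called 0 of the 13 (21.1% of all profiles), with 1 at an unadjusted p under 0.05 and 0 by rank product. The median log2 difference of the 13 was −0.11 for Ind-8 minus Con-3, −0.36 for Ind-8 minus tI-3 and 0.14 for tI-3 minus Con-3. Their median per array was 4.31, 4.04 and 4.33 in Ind-8, 4.28, 4.35 and 4.37 in Con-3 and 4.41 and 4.34 in tI-3. These medians thus overlapped between tI-3 and Con-3. Ptprc, Laptm5 and Cybb had lower means in tI-3 than in Con-3, and the other markers of the list had higher ones. The summed signal of the 6 endothelial markers was 134 to 144 in Ind-8, 149 to 158 in Con-3 and 182.5 and 189 in tI-3, with Kdr the one marker of that list above the dim end. That of the 6 epithelial markers was 116 to 122 in Ind-8, 100.3 to 133 in Con-3 and 130.1 and 145 in tI-3, with overlap. The part of these and of the fibroblast markers in the levels of Cd14 was not tested. Ptprc, a marker of blood-derived cells, did not separate the lines and was not among the 6 called lower in Ind-8 than in tI-3. Its values were 3.37 to 3.73 in Ind-8, 3.55 to 3.75 in Con-3 and 3.61 on both tI-3 arrays. All of them lay at the dim end, so a difference in Ptprc between lines may have been missed.

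Lbp encodes the serum protein that extracts single LPS molecules and delivers them to CD14, and the liver is its main source. Its level was 4.65, 4.60 and 4.59 in Ind-8, 4.64, 4.80 and 4.85 in Con-3 and 4.78 and 4.79 in tI-3. The Ind-8 and Con-3 arrays overlapped, the tI-3 arrays fell within the Con-3 range, and both tI-3 arrays lay above all Ind-8 arrays. All 8 readings were close to the dim end, whose bound was 4.29. Line means were 4.61 ± 0.03 in Ind-8 (SD, n = 3), 4.76 ± 0.11 in Con-3 (SD, n = 3) and 4.78 in tI-3. Differences were −0.15 (SE 0.09) for Ind-8 minus Con-3, −0.17 (SE 0.10) for Ind-8 minus tI-3 and 0.02 (SE 0.10) for tI-3 minus Con-3. Quantile-normalizing the arrays again gave differences of 0.03 for Ind-8 minus tI-3 and −0.10 for tI-3 minus Con-3, each of the other sign. With Con-3 replicate 3 left out, the Con-3 comparisons gave −0.10 for Ind-8 and 0.07 for tI-3.

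Ly96 encodes MD-2, the protein bound to TLR4 that holds the lipid part of LPS. Its main profile read 7.18, 6.66 and 5.94 in Ind-8, 5.54, 5.14 and 4.56 in Con-3 and 6.20 and 5.95 in tI-3. Every Con-3 array lay below every array of the other lines, while the Ind-8 range of 5.94 to 7.18 enclosed both tI-3 arrays. Means were 6.59 ± 0.62 in Ind-8 (SD, n = 3), 5.08 ± 0.49 in Con-3 (SD, n = 3) and 6.08 ± 0.17 in tI-3 (SD, n = 2). The spread within Ind-8 and within Con-3 was the widest of the 10 genes in each of these lines. Ind-8 exceeded Con-3 by 1.52 on the log2 scale (SE 0.30), or 2.86-fold, and tI-3 exceeded Con-3 by 1.00 (SE 0.33). Ind-8 minus tI-3 was 0.52 (SE 0.33), which turned to −0.26 when the level of the hybridization controls entered the fit as a block. Without Con-3 replicate 3, the array with the lowest Ly96, the differences from Con-3 were 1.26 for Ind-8 and 0.74 for tI-3. The second profile of the gene read 6.95, 6.60 and 6.01 in Ind-8, 5.37, 5.14 and 4.65 in Con-3 and 6.27 and 5.87 in tI-3. It placed the lines in the same order, with differences of 1.47 (SE 0.24), 0.45 (SE 0.27) and 1.02 (SE 0.27) in the order used above for Lbp. The 2 profiles come from transcripts of the same gene and are not independent readings.

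Cd14 and its partner MD-2 thus had opposite orders in the p53-expressing Ind-8 line against Con-3, Cd14 being lower there and Ly96 higher. Within a line the picture differed. In each of the 3 lines, the array with the highest Cd14 was also the array with the highest Ly96, and the array with the lowest Cd14 had the lowest Ly96. Over the 8 arrays, deviations of the 2 genes from their line means had a Pearson's r of 0.94, and their levels an r of −0.34. In each line the highest array for both genes was replicate 1 and the lowest was the last replicate, although over all profiles arrays of the same number were not more alike throughout. A link between the 2 genes was not tested. This pair was picked out after its values were seen, from 45 pairs of the 10 genes whose r for deviations ran from −0.87 (Tnfaip3 and Tlr2) to 0.94 with a median of 0.01. The 8 deviations share 3 line means, so fewer than 8 are free, and the r is given as a description.

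**Figure D2:**
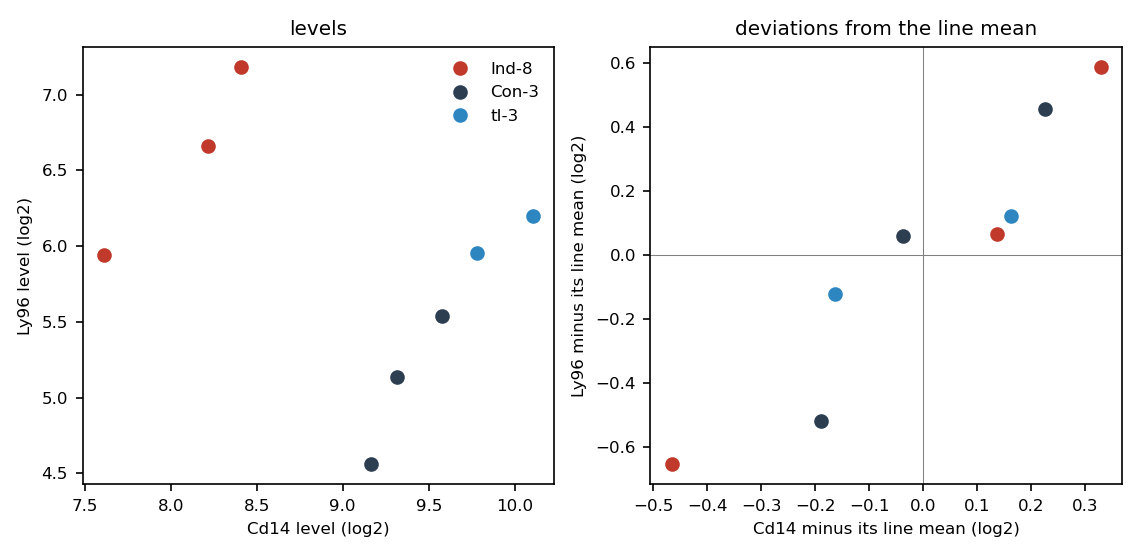
Cd14 against Ly96 (main profile, log2), each point 1 array coloured by line, as levels on the left and as deviations from the mean of the array's own line on the right. Levels fall into separate groups by line (r −0.34), whereas the deviations rise together (r 0.94 over 8 arrays).

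Tlr4 encodes the signalling receptor for LPS. It read 6.66, 7.15 and 6.80 in Ind-8, 6.69, 6.67 and 6.17 in Con-3 and 7.31 and 6.95 in tI-3. Ind-8 overlapped both other lines, while both tI-3 arrays lay above all Con-3 arrays. Means were 6.87 ± 0.25 in Ind-8 (SD, n = 3), 6.51 ± 0.30 in Con-3 (SD, n = 3) and 7.13 ± 0.25 in tI-3 (SD, n = 2). Con-3 replicate 3 held the lowest level. The differences were 0.36 (SE 0.17) for Ind-8 minus Con-3, −0.26 (SE 0.19) for Ind-8 minus tI-3 and 0.62 (SE 0.19) for tI-3 minus Con-3. Leaving that array out changed the first to 0.19 and the last to 0.45. By line means, Ind-8 stood between the other lines for Tlr4 and below them for Cd14. Since its Tlr4 arrays overlapped both other lines, the place of Ind-8 for Tlr4 is not settled.

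Tlr2 encodes the receptor for bacterial lipoproteins, which pairs with TLR1 or TLR6 and can also use CD14. Its level was 5.59, 5.85 and 5.63 in Ind-8, 5.85, 6.11 and 6.01 in Con-3 and 5.97 and 6.27 in tI-3. The highest Ind-8 array and the lowest Con-3 array lay next to each other without crossing, and the Con-3 and tI-3 arrays overlapped. Means were 5.69 ± 0.14 in Ind-8 (SD, n = 3), 5.99 ± 0.13 in Con-3 (SD, n = 3) and 6.12 ± 0.21 in tI-3 (SD, n = 2), the same order of lines as for Cd14 with smaller steps. Ind-8 differed by −0.30 (SE 0.12) from Con-3 and by −0.43 (SE 0.13) from tI-3, and tI-3 minus Con-3 was 0.13 (SE 0.13). The tI-3 array used mattered here. Ind-8 minus tI-3 was −0.58 without tI-3 replicate 1 and −0.28 without tI-3 replicate 2, and tI-3 minus Con-3 was 0.28 and −0.02 respectively. The differences from Con-3 without its replicate 3 were −0.29 for Ind-8 and 0.14 for tI-3.

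Promoters were searched for the κB consensus, the 10-base motif that NF-κB dimers bind, since these genes act upstream of NF-κB and some of them are known to answer it. The RefSeq promoter table (GRCm38.p6) has entries for 6 of the 10 genes, namely Tlr2, Tlr3, Myd88, Ticam1, Nfkbia and Tnfaip3, the last with 2 entries. The table has none for Cd14, Lbp, Ly96 and Tlr4. In the 250 bases before the gene start, read on both strands, 4 of the 7 entries held a match, against 2382 of all 32851 promoters of that length (7.25%). Tlr2 held 2 matches that overlap, starting 173 and 172 bases before the gene start, and Tlr3 held 1 that starts 211 bases before it. The promoters of Myd88 and Ticam1 and one of those of Tnfaip3 held no match, which says only that the motif is not in this window. The Tlr2 stretch is printed because Tlr2 is the one receptor among the 10 genes whose line means followed the order of Cd14. It lies at chr3:83841609-83841858 on the minus strand, upstream of the gene and outside its transcript, and capitals mark the overlapping matches.
Tlr2: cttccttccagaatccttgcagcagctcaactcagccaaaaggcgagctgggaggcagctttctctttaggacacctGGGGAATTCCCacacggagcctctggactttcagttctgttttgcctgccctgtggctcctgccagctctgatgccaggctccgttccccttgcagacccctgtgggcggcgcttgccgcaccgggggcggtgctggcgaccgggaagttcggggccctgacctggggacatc

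Tlr3 encodes the endosomal receptor for double-stranded RNA. It read 3.49, 3.42 and 3.34 in Ind-8, 3.47, 3.58 and 3.38 in Con-3 and 3.54 and 3.34 in tI-3. These values lie below the 25th percentile of 4.29, and Tlr3 was the one gene of the 10 whose mean did. The lines overlapped in every comparison. Differences were −0.06 (SE 0.10), −0.03 (SE 0.11) and −0.04 (SE 0.11) for Ind-8 minus Con-3, Ind-8 minus tI-3 and tI-3 minus Con-3. The first was −0.11 and the last −0.09 with Con-3 replicate 3 left out. At so low a signal a difference in Tlr3 may have been missed.

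Myd88 encodes the adaptor that serves TLR2 and TLR4 and most other Toll-like receptors. Its level was 8.55, 8.54 and 8.33 in Ind-8, 8.17, 8.27 and 8.05 in Con-3 and 8.05 and 8.16 in tI-3. All Ind-8 arrays lay above all others, and both tI-3 arrays fell inside the Con-3 range. Means were 8.47 ± 0.12 in Ind-8 (SD, n = 3), 8.16 ± 0.11 in Con-3 (SD, n = 3) and 8.11 ± 0.08 in tI-3 (SD, n = 2). Ind-8 exceeded Con-3 by 0.31 (SE 0.10), a 1.24-fold step, and tI-3 by 0.36 (SE 0.11). tI-3 and Con-3 stood −0.05 apart (SE 0.11), within the spread of either line. Quantile-normalizing the arrays again moved the step over tI-3 to 0.19 and tI-3 minus Con-3 to 0.08, and without Con-3 replicate 3 the differences from Con-3 were 0.25 for Ind-8 and −0.11 for tI-3.

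Ticam1 encodes TRIF, the sole adaptor of TLR3 and the adaptor of TLR4 once that receptor is inside the cell. It read 7.12, 6.95 and 7.19 in Ind-8, 6.30, 6.48 and 6.51 in Con-3 and 6.73 and 6.70 in tI-3. The lines did not overlap at all, with Ind-8 highest, tI-3 between and Con-3 lowest. Cdkn1a and Mdm2 also had this order, whose share among all profiles was not counted. A link of Ticam1 to p53 was not tested. Means were 7.09 ± 0.12 in Ind-8 (SD, n = 3), 6.43 ± 0.11 in Con-3 (SD, n = 3) and 6.72 ± 0.02 in tI-3 (SD, n = 2). Ind-8 exceeded Con-3 by 0.65 (SE 0.10), or 1.57-fold, and tI-3 by 0.37 (SE 0.11). tI-3 exceeded Con-3 by 0.28 (SE 0.11). The step over tI-3 was 0.22 with arrays quantile-normalized again. The steps over Con-3 without its replicate 3 were 0.69 for Ind-8 and 0.32 for tI-3. Both adaptor genes were thus highest in Ind-8, the line with the lowest Cd14.

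Nfkbia encodes IκBα, which holds NF-κB in the cytoplasm and is made anew once NF-κB is active. Its promoter held 1 κB match that starts 29 bases before the gene start. The Nfkbia and Tnfaip3 stretches are printed because these inhibitors are the feedback arm of the pathway, with the matches in capitals. That of Nfkbia lies at chr12:55492648-55492897 and that of Tnfaip3 at chr10:19015411-19015660, both on the minus strand and upstream of the transcript.
Nfkbia: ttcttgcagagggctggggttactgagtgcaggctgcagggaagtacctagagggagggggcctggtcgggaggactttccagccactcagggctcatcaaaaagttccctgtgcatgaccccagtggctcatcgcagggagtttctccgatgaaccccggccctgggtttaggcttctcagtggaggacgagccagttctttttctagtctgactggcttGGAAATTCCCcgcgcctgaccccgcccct
Tnfaip3: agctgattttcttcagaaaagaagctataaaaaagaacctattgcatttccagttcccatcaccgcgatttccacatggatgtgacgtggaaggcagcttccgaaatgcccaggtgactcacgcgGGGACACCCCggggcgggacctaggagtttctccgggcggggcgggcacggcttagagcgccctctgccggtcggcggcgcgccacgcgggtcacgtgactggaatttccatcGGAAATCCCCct

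The level of Nfkbia was 10.03, 10.11 and 9.91 in Ind-8, 10.07, 9.77 and 9.70 in Con-3 and 10.76 and 10.48 in tI-3. Both tI-3 arrays lay above all others, and Ind-8 and Con-3 overlapped. Means were 10.02 ± 0.10 in Ind-8 (SD, n = 3), 9.85 ± 0.20 in Con-3 (SD, n = 3) and 10.62 ± 0.20 in tI-3 (SD, n = 2). tI-3 exceeded Con-3 by 0.77 (SE 0.14), or 1.71-fold, and Ind-8 minus tI-3 was −0.60 (SE 0.14). The step of Ind-8 over Con-3 was 0.17 (SE 0.12), which did not exceed the spread of the Con-3 arrays. Without Con-3 replicate 3 the differences from Con-3 were 0.70 for tI-3 and 0.10 for Ind-8.

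Tnfaip3 encodes A20, a ubiquitin-editing enzyme that takes apart the signalling complexes upstream of NF-κB. One of its 2 promoter entries held 2 matches, starting 125 and 12 bases before the gene start (above). Its level was 7.72, 7.45 and 7.67 in Ind-8, 8.71, 8.26 and 8.34 in Con-3 and 7.76 and 7.63 in tI-3. All Con-3 arrays lay above all Ind-8 and tI-3 arrays, and the Ind-8 and tI-3 arrays overlapped. Means were 7.61 ± 0.15 in Ind-8 (SD, n = 3), 8.44 ± 0.24 in Con-3 (SD, n = 3) and 7.70 ± 0.10 in tI-3 (SD, n = 2). Ind-8 minus Con-3 was −0.82 (SE 0.13) and tI-3 minus Con-3 was −0.74 (SE 0.15), while Ind-8 minus tI-3 was −0.08 (SE 0.15). The lines with p53 thus held less Tnfaip3 mRNA than Con-3 and differed little from each other. Leaving out Con-3 replicate 3 changed the differences from Con-3 to −0.87 for Ind-8 and −0.79 for tI-3, and quantile-normalizing again changed Ind-8 minus tI-3 to −0.27. The 2 inhibitor genes did not share an order of lines, Nfkbia standing apart in tI-3 and Tnfaip3 in Con-3.

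**Figure D3:**
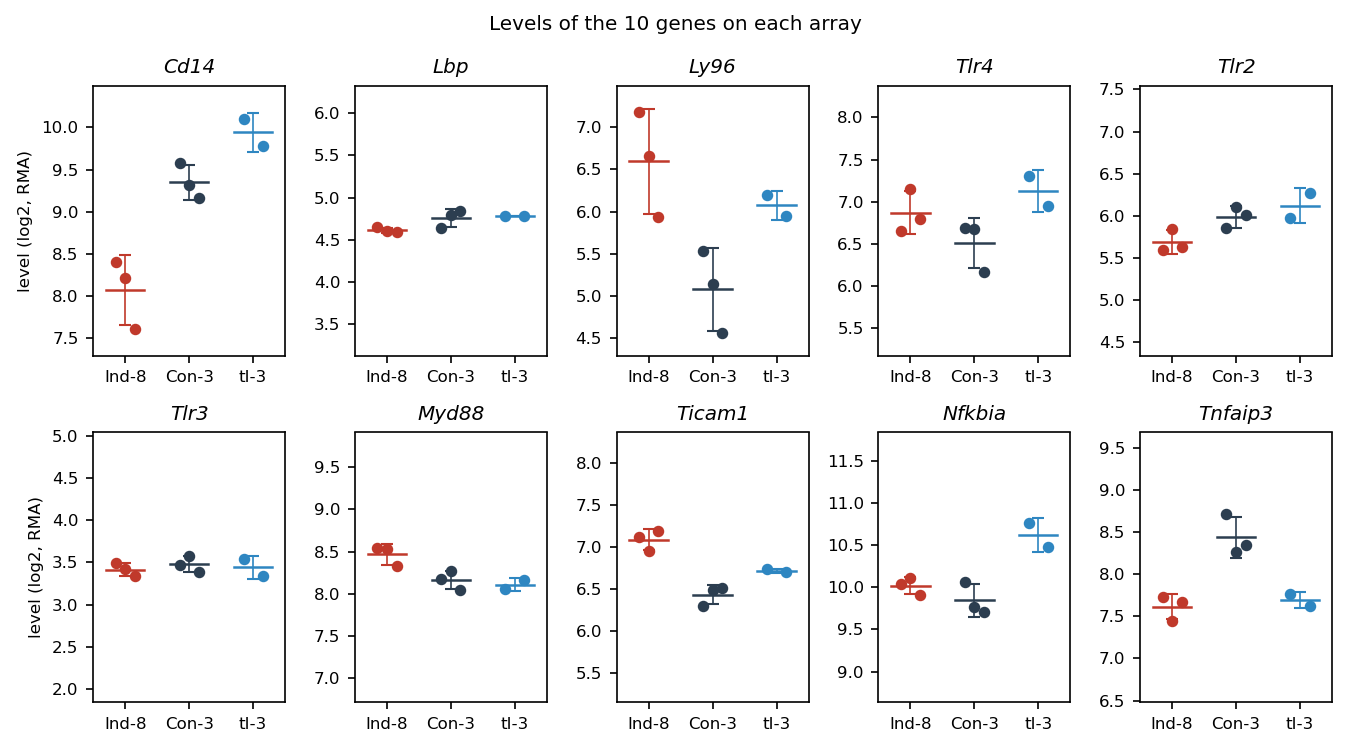
Levels (log2, RMA) of the 10 genes on each array, with the mean of each line as a bar and its SD as whiskers (n = 3, 3 and 2), on vertical axes of equal span. Cd14 is lowest on all Ind-8 arrays, Ly96 and Tnfaip3 set Con-3 apart in opposite directions, and Tlr3 stays near 3.4 throughout.

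Side by side, the 10 genes did not share an order of lines. Ind-8 had the lowest mean for Cd14, Tlr2, Lbp, Tlr3 and Tnfaip3, by less than the spread of a line for Tlr3 and Tnfaip3, and the highest for Ly96, Myd88 and Ticam1. Con-3 had the lowest mean for Ly96, Tlr4, Ticam1 and Nfkbia and the highest for Tnfaip3 and Tlr3. tI-3 had the highest mean for Cd14, Lbp, Tlr4, Tlr2 and Nfkbia and the lowest for Myd88, where it overlapped Con-3. Comparison A is Ind-8 against Con-3, B is Ind-8 against tI-3 and C is tI-3 against Con-3, and since A and B share the Ind-8 arrays, A and C the Con-3 arrays and B and C the tI-3 arrays, no agreement between them is counted. The lines did not overlap for 6 of the 10 genes in A (Cd14, Ly96, Tlr2, Myd88, Ticam1 and Tnfaip3), against 37.8% of all 18172 profiles. In B they did not overlap for 6 (Cd14, Lbp, Tlr2, Myd88, Ticam1 and Nfkbia), against 60.2%, and in C for 6 (Cd14, Ly96, Tlr4, Ticam1, Nfkbia and Tnfaip3), against 52.2%.

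The hybridization controls bear on tI-3 most, and adding their level as a block moved some of these differences by more than 1 SD within lines. Cd14 in Ind-8 minus tI-3 became −2.15, so it kept its sign and grew. Tlr4 became −0.78 for Ind-8 minus tI-3 and 0.96 for tI-3 minus Con-3, and Nfkbia −0.82 for Ind-8 minus tI-3. Ly96 in tI-3 minus Con-3 became 1.51. For Ind-8 minus tI-3, the block gave 0.19 for Myd88, −0.04 for Lbp and −0.17 for Tlr3. Because both tI-3 arrays have a high control level, such a fit leans on Con-3 replicate 3, the single other array with one.

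At an adjusted p under 0.05 in limma, the members passing in A were Cd14, Ly96, Ticam1 and Tnfaip3, 4 of 10, where 21.1% of all profiles passed. In B they were Cd14, Tlr2, Myd88, Ticam1 and Nfkbia, 5 of 10, where 30.7% passed. In C they were Tlr4, Ly96, Nfkbia and Tnfaip3, 4 of 10, where 25.8% passed. With the rank product test of the methods, Cd14, Ly96 and Tnfaip3 passed in A (3.68% of all profiles), Cd14 in B (2.00%) and 0 of the 10 in C (2.27%). Leaving out Con-3 replicate 3 kept the same 4 genes in A. In C, leaving out Con-3 replicate 3 or tI-3 replicate 1 or 2 left 2 (Nfkbia and Tnfaip3), where 23.8%, 19.0% and 13.9% of all profiles passed. In B, leaving out Ind-8 replicate 1 or tI-3 replicate 2 left 2 (Cd14 and Nfkbia), where 22.3% and 12.9% of all profiles passed, as did leaving out tI-3 replicate 1 (Cd14 and Tlr2, 21.5%). Leaving out Ind-8 replicate 2 ended the call of Myd88 in B (22.5%), and leaving out Ind-8 replicate 3 ended those of Tlr2 and Ticam1 and added Ly96 (27.4%). In C, leaving out Ind-8 replicate 2 or Con-3 replicate 2 ended the call of Ly96 (25% and 19.1%). Leaving out Ind-8 replicate 1 or 3, or fitting the 2 compared lines alone, added Cd14 in C (25.5%, 24.5% and 23.9%). With the hybridization-control level as a block, Cd14 alone passed in B, which ended 4 of the 5 (3.21% of all profiles), and Tlr4, Ly96 and Nfkbia passed in C (13.7%). The falls were thus not particular to the 10 genes. With the block, the B differences behind the ended calls stayed about as large or grew, save that of Myd88. Tlr2 was then −0.39 (−0.43 in the main fit), Ticam1 0.48 (0.37), Nfkbia −0.82 (−0.60) and Myd88 0.19 (0.36). In C the block ended the call of Tnfaip3, whose difference was −0.65 (−0.74 in the main fit). Quantile-normalizing again ended the calls of Myd88 and Ticam1 in B and of Ly96 in C, where Cd14 and Ticam1 then passed. Centring arrays on their medians ended that of Myd88 in B, and centring, keeping the control probe sets or counting every probe set each ended that of Ly96 in C. Over 19 alternatives the number that passed ran from 2 to 6 in A, from 1 to 6 in B and from 0 to 5 in C. The genes were chosen with these arrays in view, so nothing is read from these counts or from the median sizes that follow. The median absolute log2 difference of the 10 genes was 0.33 in A, 0.37 in B and 0.44 in C, and that of all profiles 0.16, 0.24 and 0.21.

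**Figure D4:**
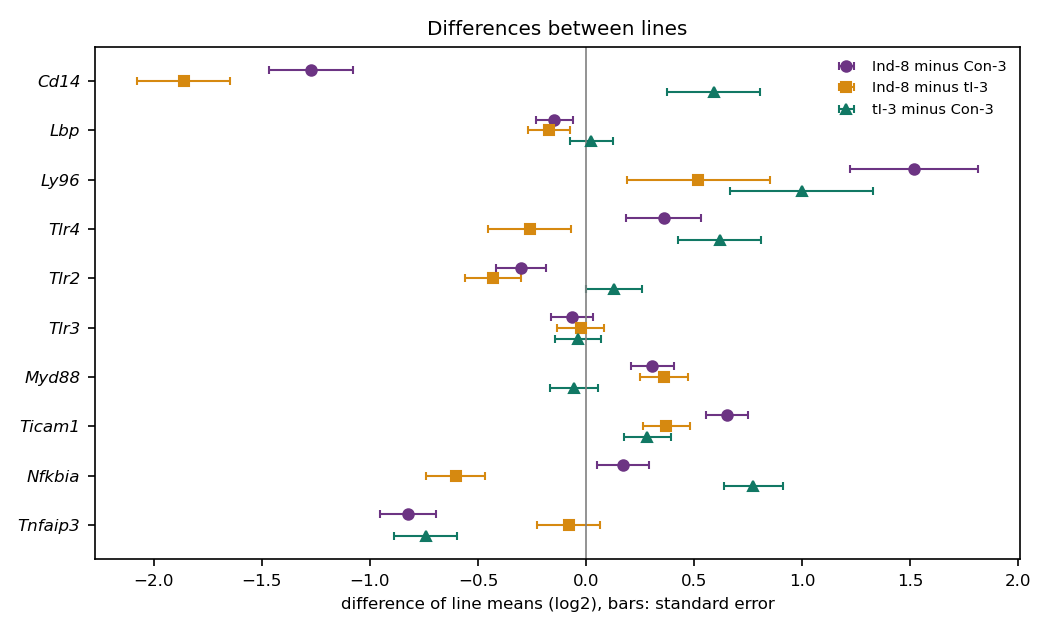
Differences of line means (log2) for the 10 genes in the 3 comparisons, with bars for the standard error of the limma fit. Cd14 lies farthest to the left for Ind-8 minus tI-3 (−1.86) and Ly96 farthest to the right for Ind-8 minus Con-3 (1.52).

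Genes whose levels followed Cd14 most closely over the 8 arrays were sought among 12317 other profiles that name 1 gene and lie above the 25th percentile. The 5 highest values of Pearson's r belonged to Tnfrsf17 (0.99), Tnfrsf13c (0.99), Riok3 (0.98), Fubp1 (0.97) and Hars2 (0.97). Their line means had the order of Cd14, lowest in Ind-8 and highest in tI-3. Those of Tnfrsf17 were 4.17, 4.38 and 4.52 in Ind-8, Con-3 and tI-3, at the dim end and below the 25th percentile in Ind-8, and those of Tnfrsf13c ran from 4.53 to 4.92. Little can be read from so narrow a range. The means of Fubp1 were 7.25, 7.93 and 8.25. Of the other 9 genes chosen at the outset, Tlr2 had the highest r with Cd14 (0.74) and Ticam1 (−0.75) and Myd88 (−0.74) the lowest. The arrays group by line, so r mostly measures a shared order of 3 lines.

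The remaining genes of the pathway were read from 7 lists, of which 90 genes were measured. Among these 90, limma called 13 in A at an adjusted p under 0.05, 9 of them higher in Ind-8 (10.8% of all profiles were higher) and 4 lower (10.2% were). In B it called 25, 12 higher in Ind-8 (15.9% of all profiles) and 13 lower (14.8%). In C it called 20, 14 higher in tI-3 (10.3%) and 6 lower (15.6%). Median log2 differences over the 90 genes were −0.04, −0.04 and 0.05, and over all profiles −0.06, −0.06 and 0.03. Of all calls, 51.5% in A and 51.8% in B were higher in Ind-8, or 41.3% and 42.7% with each array centred on its median, and 39.8% in C were higher in tI-3, or 48.0% with arrays quantile-normalized again. The shares of all profiles given by direction therefore depend on the scaling. The counts without Con-3 replicate 3 were 12 in A and 19 in C. The B count fell to 12 without tI-3 replicate 2 (12.9% of all profiles were called then), to 16 without Ind-8 replicate 2 (22.5%) and to 1 with the hybridization-control level as a block (3.21%). The C count fell to 12 without tI-3 replicate 2 (13.9%) and to 9 with that block (13.7%). Calls over all profiles fell with them. For all 46 calls named in the next paragraphs, every array of one line lay on one side of every array of the other. These calls were picked for their adjusted p and size on the same arrays, so this adds no support to them. Over all profiles the lines did not overlap for 37.8% in A, 60.2% in B and 52.2% in C.

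Closest to CD14 in function, the LPS-handling list had 1 of 7 measured genes called in A (21.1% of all profiles were), 3 in B (30.7%) and 2 in C (25.8%). Pltp, a lipid-transfer protein of the LBP family, was higher in Ind-8 than in Con-3 by 0.82 (SE 0.12, limma adjusted p = 0.00095) and than in tI-3 by 1.18 (SE 0.13, limma adjusted p = 0.000248). Its mean level was 9.01 in Ind-8, 8.19 in Con-3 and 7.83 in tI-3. Scarb1, a lipoprotein receptor, was lower in tI-3 than in Con-3 by a difference of −0.78 (limma adjusted p = 0.00145) and lower than in Ind-8 (Ind-8 minus tI-3 0.71, limma adjusted p = 0.0027). Ly86 (Ind-8 minus tI-3 −0.52, limma adjusted p = 0.0384) and Cd180 (tI-3 minus Con-3 0.56, limma adjusted p = 0.0406), which form a receptor akin to MD-2 with TLR4, read low, Cd180 below the 25th percentile. Their adjusted p rose to 0.0538 to 0.368 for Ly86 without Ind-8 replicate 2 or 3, Con-3 replicate 2 or tI-3 replicate 2, and to 0.0503 to 0.289 for Cd180 without Ind-8 replicate 1 or 2, Con-3 replicate 2 or 3 or tI-3 replicate 2.

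Of 12 other Toll-like receptors and chaperones, limma at an adjusted p under 0.05 called 1 in A (21.1% of all profiles), 3 in B (30.7%) and 0 in C (25.8%, with 2 of the 12 at an unadjusted p under 0.05 and 0 by rank product). Tlr5, the flagellin receptor, was lower in Ind-8 than in Con-3 (−0.58, limma adjusted p = 0.0221) and than in tI-3 (−0.63, limma adjusted p = 0.0203). The A call was lost without Ind-8 replicate 1 or 2 or Con-3 replicate 1 or 3 (limma adjusted p 0.0533 to 0.0847) and the B call without Ind-8 replicate 1 or 2 or tI-3 replicate 2 (0.061 to 0.20). In B, Tlr1, whose mean lay below the 25th percentile, was higher (0.37, limma adjusted p = 0.036) and Tlr9 lower (−0.43, limma adjusted p = 0.0237) in Ind-8. Leaving out either tI-3 array ended both calls, as did Ind-8 replicate 2 for both, Ind-8 replicate 3 and Con-3 replicate 2 for Tlr1 and Ind-8 replicate 1 for Tlr9 (limma adjusted p 0.0515 to 0.235 for Tlr1 and 0.0657 to 0.122 for Tlr9).

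Behind MyD88, limma called 2 of 16 genes in A (21.1% of all profiles), 5 in B (30.7%) and 6 in C (25.8%). Irak2, a kinase that binds MyD88, was higher than in Con-3 both in Ind-8 (0.85, limma adjusted p = 0.000215) and in tI-3 (0.68, limma adjusted p = 0.0012). Ube2n, the enzyme that builds ubiquitin chains with TRAF6, was lower in tI-3 than in Con-3 (tI-3 minus Con-3 −1.22, limma adjusted p = 0.000212) and than in Ind-8 (Ind-8 minus tI-3 0.98, limma adjusted p = 0.000807). Tab2, which reads those chains for the kinase TAK1, had the same order (−0.80, limma adjusted p = 0.000231 in C, and 0.59, limma adjusted p = 0.00147 in B). Map3k7, the gene of TAK1, was lower than in Con-3 in Ind-8 (−0.39, limma adjusted p = 0.0116, and 0.0502 without Con-3 replicate 2) and in tI-3 (−0.48, limma adjusted p = 0.00541, and 0.0607 without tI-3 replicate 2). Tirap, which brings MyD88 to TLR2 and TLR4, was lower in tI-3 than in Ind-8 (Ind-8 minus tI-3 0.78, limma adjusted p = 0.00838, and 0.0524 without tI-3 replicate 1). It was also lower there than in Con-3 (−0.58, limma adjusted p = 0.0317, and 0.0585 to 0.142 without Con-3 replicate 1 or either tI-3 array). Sarm1 was higher in tI-3 than in Ind-8 (Ind-8 minus tI-3 −0.42, limma adjusted p = 0.0133, and 0.12 without tI-3 replicate 2) and than in Con-3 (0.33, limma adjusted p = 0.0408). Leaving out any array but Con-3 replicate 3 or tI-3 replicate 1 ended the latter call (limma adjusted p 0.0511 to 0.267).

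The TRIF arm had 3 of 9 genes called in A, all higher in Ind-8 (10.8% of all profiles were), 3 in B, all higher in Ind-8 (15.9%), and 1 in C, higher in tI-3 (10.3%). Ripk3, a kinase that TRIF can bind, averaged 9.88 in Ind-8, 8.99 in Con-3 and 9.67 in tI-3, and was higher than in Con-3 in Ind-8 (0.89, limma adjusted p = 6.4e-05) and in tI-3 (0.68, limma adjusted p = 0.000487). Ikbke, a kinase of IRF3, was higher in Ind-8 than in Con-3 (0.38, limma adjusted p = 0.0197) and than in tI-3 (0.44, limma adjusted p = 0.0137). These calls were lost without Ind-8 replicate 2 or Con-3 replicate 1 or 2 in A (limma adjusted p 0.0504 to 0.0635) and without tI-3 replicate 2 in B (0.133). Tbk1, the related kinase, was higher in Ind-8 than in tI-3 (0.40, limma adjusted p = 0.0385). That call ended without Ind-8 replicate 1 or 2, Con-3 replicate 2 or either tI-3 array (limma adjusted p 0.0541 to 0.197). The median log2 difference of the list was 0.22 in A, 0.29 in B and −0.03 in C, while Azi2 and Irf7 lay below 0 in A and B, as did Traf3 in A.

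Among the 8 genes of the IKK complex and the NF-κB subunits, limma called 2 in A (21.1% of all profiles), 1 in B (30.7%) and 2 in C (25.8%). Ikbkg, the regulatory subunit NEMO, was higher than in Con-3 in Ind-8 (0.57, limma adjusted p = 0.00995) and in tI-3 (0.71, limma adjusted p = 0.00461). Rela, the main activating subunit, was higher in tI-3 than in Con-3 (0.53, limma adjusted p = 0.00509) and than in Ind-8 (Ind-8 minus tI-3 −0.61, limma adjusted p = 0.00272). Rela and Nfkbia were both highest in tI-3. Con-3 had the lowest mean for Nfkbia and Ind-8 for Rela. The arrays of these 2 lines overlapped for both genes, with Ind-8 minus Con-3 at 0.17 for Nfkbia and −0.08 for Rela. Nfkb1 was lower in Ind-8 than in Con-3 (−0.45, limma adjusted p = 0.0358), a call that was lost without Ind-8 replicate 1 or 2 or Con-3 replicate 2 or 3 (0.0769 to 0.129). Of 14 other IκB and feedback genes, 2 were called in each comparison, beside the same shares of all profiles. Nfkbiz, a nuclear IκB, was higher in Ind-8 than in Con-3 by 1.16 (limma adjusted p = 0.000215) and than in tI-3 by 1.00 (limma adjusted p = 0.000947), and Tnip1, which binds A20, was higher than in Con-3 (0.42, limma adjusted p = 0.00535). Nfkbie was lower in tI-3 than in Ind-8 (Ind-8 minus tI-3 0.64, limma adjusted p = 0.0052, and 0.0636 without tI-3 replicate 2) and than in Con-3 (−0.43, limma adjusted p = 0.0338, and 0.0685 to 0.252 without any single Con-3 array or tI-3 replicate 2). Bcl3, with a mean below the 25th percentile, was higher in tI-3 than in Con-3 (0.40, limma adjusted p = 0.00885, and 0.0556 without tI-3 replicate 2).

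Of 24 inflammatory target genes of NF-κB, limma called 2 in A (1 higher and 1 lower in Ind-8, against 10.8% and 10.2% of all profiles), 8 in B, all lower in Ind-8 (14.8% of all profiles were), and 7 in C, all higher in tI-3 (10.3% were). Marker genes also differed between these lines (above). The macrophage markers that were called (6 of 13 in B and 2 in C) and Kdr went in the same direction as the called targets. So did Vwf, at the dim end, in C, while the called fibroblast markers went both ways. The part of the markers in this list was not tested. The list's median log2 difference was −0.06 in A, −0.22 in B and 0.32 in C. Ccl2, a monocyte chemokine, averaged 8.16 in Ind-8, 8.39 in Con-3 and 9.75 in tI-3, a difference of −1.59 in B (limma adjusted p = 0.00112) and 1.36 in C (limma adjusted p = 0.00222). Cxcl1, which attracts neutrophils, differed by −0.91 in B (limma adjusted p = 0.00384) and by 0.84 in C (limma adjusted p = 0.00509, and 0.0554 without tI-3 replicate 1). Ccl7 was higher in tI-3 than in Con-3 (1.21, limma adjusted p = 0.0129, and 0.0968 without tI-3 replicate 1). Csf1, the macrophage growth factor, was higher than in Con-3 in Ind-8 (0.65, limma adjusted p = 0.00108) and in tI-3 (0.53, limma adjusted p = 0.00497, and 0.0551 without tI-3 replicate 2). Ptx3, a secreted pattern-recognition protein, was lower in Ind-8 than in Con-3 (−0.94, limma adjusted p = 0.0116). Leaving out Con-3 replicate 3 ended 4 of the A and C calls named here, those of Tlr5 and Nfkb1 in A and of Cd180 and Nfkbie in C. With the hybridization-control level as a block, the B calls of these lists were lost save that of Pltp (limma adjusted p = 0.0252). For Ccl2 the limma adjusted p was then 0.104 in B and 0.0389 in C, and for Rela 0.0838 and 0.0332. The block also ended 9 of the 17 named calls in C, with a limma adjusted p of 0.0553 for Cxcl1, 0.0724 for Csf1, 0.0887 for Map3k7, 0.108 for Bcl3, 0.132 for Ccl7, 0.135 for Nfkbie, 0.266 for Cd180, 0.297 for Tirap and 0.347 for Sarm1. In A the block amounts to leaving out Con-3 replicate 3, so it ended the same calls and is not a separate check. They were those of Tlr5 (limma adjusted p = 0.0847, difference −0.49) and Nfkb1 (limma adjusted p = 0.129, difference −0.35). A call lost under this block does not by itself show a smaller difference, since Nfkbia and Ticam1 lost theirs in B with larger ones (above). Scaling mattered for few of the named calls. Quantile-normalizing again ended those of Ly86 and Tbk1 in B and of Cd180 and Sarm1 in C, and centring arrays on their medians ended that of Tbk1. Fitting the 2 compared lines alone ended those of Ly86 and Tlr1 in B and of Cd180 and Sarm1 in C, and a trend in the prior variance ended that of Sarm1 in C. The level of the hybridization controls and the tI-3 line cannot be told apart.

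**Figure D5:**
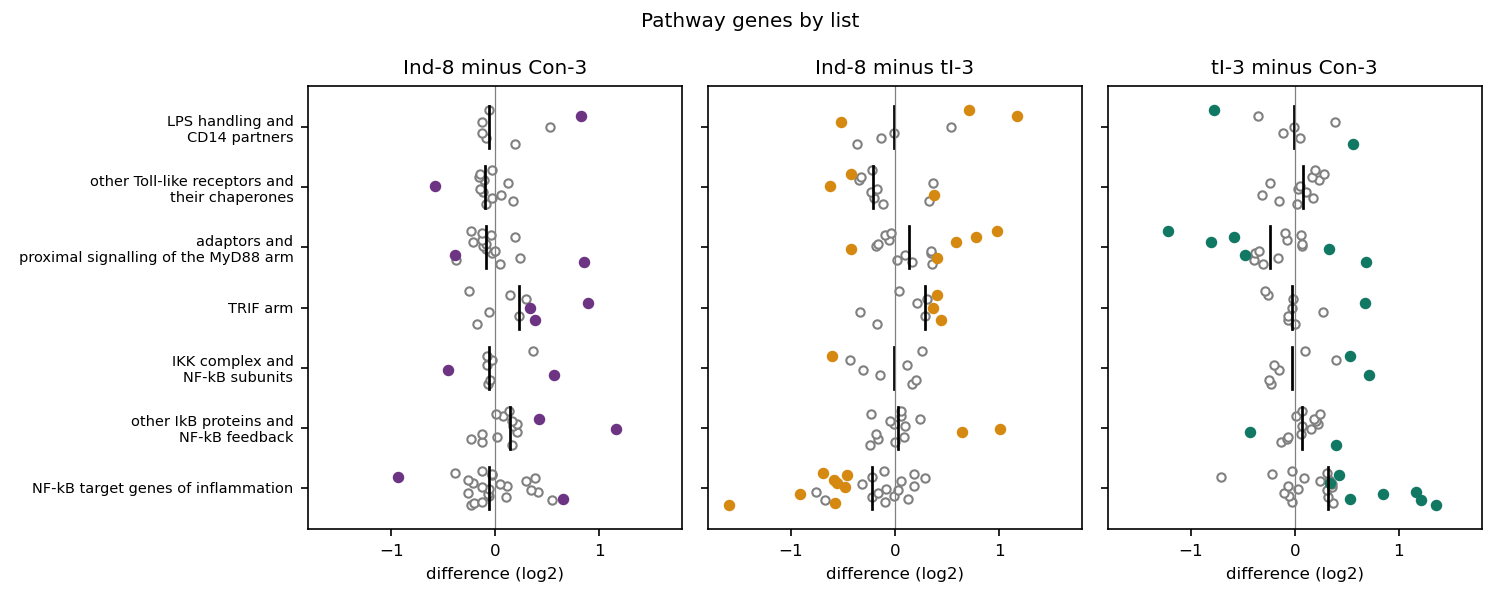
Log2 differences of the 90 other pathway genes by list in the 3 comparisons, each point 1 gene, filled where the limma adjusted p was under 0.05, with a black bar at the median of the list. The inflammatory NF-κB targets lie to the left for Ind-8 minus tI-3 (median −0.22) and to the right for tI-3 minus Con-3 (median 0.32), and the medians of the TRIF arm are 0.22 and 0.29 in the comparisons of Ind-8.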

How the data were processed

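The authors hybridized RNA of independent cultures to 1 Affymetrix mouse array each and summarized the probes by RMA (named in the submitters' processing notes) with a RefSeq chip description file (version 12). The deposited values are log2 levels of 22587 probe sets, of which 64 are controls and were set aside. Names came from RefSeq accessions (GRCm38.p6, names only), which matched 18294 of 22523 probe sets. Rows equal to 6 decimals counted once. The profile with the highest mean stood for a gene. limma 3.58.1 (R 4.3.3) was fitted to the 8 arrays with Benjamini-Hochberg adjustment over 18172 profiles, and a profile was called at an adjusted p under 0.05. A rank product test (100 permutations, pfp under 0.05) was re-implemented. Both were tested on simulated data. Tables were made in Python 3.11.15 (numpy 2.4.6, pandas 2.3.3) and figures with matplotlib 3.10.9. The members and lists were chosen with earlier results of these data known. Pathway genes were named by rule, in each list the called genes with the 2 largest changes in each direction and comparison, with Rela and Nfkb1. Unmatched symbols were Bpi, Hmgb1, Tlr11, Ube2v1, Ticam2, Tnip3 and Cd68. The alternatives were other tests, filters, scalings, fits with a block and each array left out.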

Additional observations from a re-analysis of the deposited data

Results flagged for a closer look

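The 18S rRNA control probe sets, which enter no comparison, gave a signal on Con-3 replicate 3 above that of the other Con-3 arrays: 11.38 at the 3′ end (6.86 and 7.07 on replicates 1 and 2), 9.53 in the middle (5.98 and 6.04) and 10.97 at the 5′ end (4.77 and 5.05), all log2. Its part in the levels of the 10 genes was not tested beyond leaving the array out. Single arrays were not tested as outliers, because the groups hold 3, 3 and 2 arrays.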

How the results depend on the processing

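The counts of called profiles were 3827, 5584 and 4694 in A, B and C, and those of called pathway genes 13, 25 and 20. With the rank product test they were 669, 364 and 412, and 3, 2 and 2. With a log2 change of at least 1 required as well they were 379, 540 and 582, and 1, 3 and 4. With the hybridization-control level as a block they were 583 in B and 2486 in C, and 1 and 9, and the cause was not tested. With each array left out in turn, called profiles ran from 2677 to 3606 in A, from 2345 to 5783 in B and from 2523 to 4642 in C, and pathway genes from 9 to 15, from 12 to 27 and from 12 to 19. With 1 tI-3 array left, that array is assumed to vary like the other lines. With arrays centred on their medians, the share of the calls that were higher in Ind-8 went from 51.5% to 41.3% in A and from 51.8% to 42.7% in B. With arrays quantile-normalized again, the share in C that were higher in tI-3 went from 39.8% to 48.0%.

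Over all profiles the replicate numbers do not pair the arrays: deviations of same-numbered arrays had r of 0.26, 0.02 and 0.37 between Ind-8 and Con-3, and not every array correlated best with its own number. The replicate block gave 4221, 6604 and 5192 calls and 15, 36 and 30 pathway genes, and it ended the calls of Ly86 and Tlr1 in B. Of the 10 genes, it added the calls of Tlr2 and Myd88 in A, of Ly96 in B (0.81) and of Cd14 in C (0.43) and ended that of Tlr4 in C.

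Under the alternatives, 494 differences of the 10 genes lay within 1 SD of the value given and 19 did not. Of the differences of named pathway genes, 1298 kept their side of the threshold, 99 lost a call and 22 gained one, and none of those called changed sign. The rank product test and the minimum change alter calls only. Signal at or near the dim end limits Tlr3, Lbp, Tlr1, Cd180, Ly86 and Bcl3, and Lcn2 and Ccl20 among the called NF-κB targets.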
